A study of Mus musculus with 25 samples.

Results

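The 10 genes described here, of 47729 genes in the bulk count table, act on ATP and adenosine outside the cell: the surface enzymes Entpd1, Entpd2, Enpp1 and Nt5e, the nucleotide receptors P2rx4, P2rx7 and P2ry14, and the adenosine receptors Adora1, Adora2a and Adora2b. They were chosen by name with earlier results of these data known, because Nt5e and P2rx4 were among the clearest differences between bleomycin-instilled and naive mice in bulk. The comparisons with naive mice are therefore given as a description without a test, and tests are kept for genotype and time. Those tests, and that of their interaction, use the same libraries of bleomycin-instilled mice and may not be independent of the choice. All 10 genes passed the filter on low counts.

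The lung cells measured were lineage-negative (Lin-), meaning that a sort kept cells without CD45, CD31 or CD326 on the surface, which mark blood, endothelial and epithelial cells. There were 20 bulk RNA-seq libraries, 4 in each of 5 groups, and 5 single-cell libraries, 1 for each condition and each from a pool of mice. By the study's text all mice were Col1a1-Cre-ERT2;Fas fl/fl. One group was naive, and the others were taken at 3 or 6 weeks after intratracheal bleomycin, an agent that injures the lung and leads to fibrosis, given either corn oil, called Fas+/+, or tamoxifen, called Fas-/-. All 5 groups thus carried the floxed Fas alleles and the Cre, which is driven by the Col1a1 promoter, so targeting depends on that promoter being active. In its single cells, the paper reports that fewer Fas-/- cells expressed the deleted exon at either time, while a part still did. It also reports, without showing the data, that the deletion was similar in all its clusters. The deletion and the tamoxifen cannot be told apart. The labels give neither sex nor age. They do not tie a replicate to an animal, while the study's methods describe replicates in general as individual animals.

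ATP leaves stressed or dying cells and acts as a danger signal through P2X ion channels and P2Y receptors. Ectonucleotidases on the cell surface then cut it stepwise, Entpd1 (CD39) from ATP and ADP to AMP, and Nt5e (CD73) from AMP to adenosine, which acts on its own receptors. In the lung, Nt5e and the adenosine receptors are known from studies of injury and fibrosis, and P2rx7 from studies of inflammation.

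Bulk libraries held 11819700 to 25189096 counts, with a median of 20122870. The deposited counts are per gene, and Fas exon 9, the deleted part, cannot be read from them. The level of Fas over all exons was 21.1 to 23.9 CPM (reads counted for a gene, scaled to equal library size) in naive libraries and 26.1 to 64.9 CPM in the libraries of bleomycin-instilled mice, which does not check the deletion. Pdgfra, a fibroblast marker, stood at 864 CPM or above in all 20 libraries, and Ptprc, which encodes CD45, stayed at or below 4.37 CPM in all groups. RNA of the other sorted-out types was present. The summed level of 8 blood endothelial markers was 144 to 395 CPM in naive, 2046 to 8072 CPM in 3-week Fas+/+, 565 to 7311 CPM in 3-week Fas-/-, 419 to 1556 CPM in 6-week Fas+/+ and 95.1 to 2398 CPM in 6-week Fas-/- libraries. Replicate 1 of the 3-week Fas+/+ group, with 8072 CPM, and replicate 4 of the 3-week Fas-/- group, with 7311 CPM, stood apart from the rest of their groups. The same 2 libraries had the lowest summed level of 7 profibrotic fibroblast markers in their groups. This level was 10876 CPM beside 46036 to 56106 CPM in Fas+/+, and 19595 CPM beside 38436 to 48185 CPM in Fas-/- libraries. The summed level of 7 epithelial markers was 24.7 to 111 CPM in naive libraries and 110 to 1385 CPM in those of bleomycin-instilled mice. No endothelial or epithelial marker was at 0 throughout a group, and Epcam, which encodes the sorted-out CD326, stayed at or below 5.17 CPM. The summed level of 6 erythroid markers was instead higher in naive libraries. It was 2980 to 9591 CPM there and 17.1 to 236 CPM in those of bleomycin-instilled mice. The part of erythroid RNA in the differences from naive was not tested. In bulk samples, fewer cells of a type and less RNA per cell cannot be told apart.

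P2rx7 and P2rx4 are neighbours on chromosome 5, P2rx7 at 122643911 to 122691432 and P2rx4 at 122707544 to 122729738 (GRCm38, both on the plus strand), with 16111 bases between them. Nt5e lies on chromosome 9 at 88327197 to 88372092, Entpd1 on chromosome 19 at 40612366 to 40741602 and Entpd2 on chromosome 2 at 25395874 to 25401321, all on the plus strand. Enpp1 lies on chromosome 10 at 24637914 to 24712159 on the minus strand. Entpd2 shares 612 exonic bases, 28.8% of its own, with Npdc1 on the same strand. Adora1 shares 1162 exonic bases, 20.1% of its own, with Mybph on the opposite strand. The values of these 2 genes are therefore uncertain. The library kit kept strand, but the counting setting is not given in the sources used here.

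The 250 bases before the start are shown for P2rx4, whose level was higher than naive in every library of bleomycin-instilled mice, and for Enpp1, whose call between the times turned on single libraries. Capitals mark the motifs searched on both strands, the GC box core GGGCGG, the hypoxia response core ACGTG and the AP-1 motif TGANTCA. RefSeq held such a window (GRCm38.p6) for 9 of the 10 genes.
P2rx4, chr5:122707294-122707543, plus strand: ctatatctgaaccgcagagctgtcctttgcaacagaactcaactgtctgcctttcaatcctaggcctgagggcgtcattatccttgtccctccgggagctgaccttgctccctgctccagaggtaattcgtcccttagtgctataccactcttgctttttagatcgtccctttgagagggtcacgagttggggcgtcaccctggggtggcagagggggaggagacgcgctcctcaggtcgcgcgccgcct
Enpp1, chr10:24712160-24712409, minus strand: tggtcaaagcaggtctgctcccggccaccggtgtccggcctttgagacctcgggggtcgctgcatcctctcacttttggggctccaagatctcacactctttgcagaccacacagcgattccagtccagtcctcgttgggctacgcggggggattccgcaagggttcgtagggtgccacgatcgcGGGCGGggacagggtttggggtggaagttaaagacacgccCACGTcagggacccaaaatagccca
The P2rx4 window held none of the 3 motifs, and the Enpp1 window held 1 GC box core and 1 hypoxia response core, read as CACGT on this strand. Among 32851 promoter windows of this length the GC box core was found in 32.7%, the hypoxia response core in 16.6% and the AP-1 motif in 6.75%. GC content was 57.2% for P2rx4 and 61.2% for Enpp1, beside a median of 52.4% over all windows.

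Of the 10 genes, Nt5e, which cuts AMP to adenosine, had the largest log2 difference from naive in each group of bleomycin-instilled mice. It was at 5.56, 5.91, 5.11 and 5.24 CPM in the naive libraries. Nt5e was at 14.6, 22.2, 22.8 and 19.3 CPM in 3-week Fas+/+ libraries and at 22.3, 18.7, 19.8 and 17.99 CPM in 3-week Fas-/- libraries. At 6 weeks it was at 22.6, 43.1, 29.3 and 25.7 CPM in Fas+/+ libraries and at 12.9, 20.03, 18.8 and 12.9 CPM in Fas-/- libraries. Every library of bleomycin-instilled mice lay above every naive one, and at 6 weeks the genotypes did not overlap. Relative to naive, the log2 differences were 1.85 at 3 weeks in either genotype, 2.47 at 6 weeks in Fas+/+ and 1.56 at 6 weeks in Fas-/-, which is 3.60-fold, 3.61-fold, 5.52-fold and 2.96-fold. These contrasts chose Nt5e and carry no test here. Groups did not overlap for 32.2%, 31.1%, 16.6% and 16.1% of all tested genes in these 4 contrasts.

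Epithelial markers moved with Nt5e. Their summed level was 488 to 1385 CPM in the 6-week Fas+/+ libraries, the group with the highest Nt5e, and 110 to 365 CPM in the 6-week Fas-/- libraries. Over the 20 libraries Nt5e had a Pearson r of 0.878 with the epithelial and 0.622 with the hematopoietic marker mean. With group means taken out, r was 0.404 and 0.645. In 6-week Fas+/+ replicate 2, the library with the highest Nt5e, 6 hematopoietic markers summed to 27.4 CPM, beside 1.53 to 4.71 CPM in the rest of its group. Epithelial markers were also highest there, at 1385 CPM beside 488 to 688 CPM. So were blood endothelial markers, at 1556 CPM beside 419 to 995 CPM, and lymphatic endothelial markers, at 149 CPM beside 28.6 to 97.3 CPM. With the epithelial marker mean fitted as a covariate, an alternative added after seeing the data, the Nt5e differences from naive were 1.30, 1.28, 1.85 and 1.17 on the log2 scale, in the same order of groups. Over the 20 libraries the genes whose log2 CPM followed Nt5e most closely, among 15773, included Ndnf (Pearson r = 0.974), Igfbp2 (0.954), Slc44a2 (0.932) and Itgb6 (0.926). Ndnf encodes a secreted factor, Igfbp2 a binding protein of insulin-like growth factors, Slc44a2 a choline transporter and Itgb6 an integrin subunit known from epithelium. These values describe likeness over libraries that share groups.

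Entpd1, which cuts ATP and ADP to AMP, was at 32.6, 59.7, 42.8 and 43.6 CPM in naive, 120, 63.8, 65.7 and 66.2 CPM in 3-week Fas+/+ and 43.4, 39.0, 40.6 and 118 CPM in 3-week Fas-/- libraries. It was at 44.1, 55.5, 45.9 and 39.1 CPM in 6-week Fas+/+ and at 30.8, 56.7, 40.8 and 36.1 CPM in 6-week Fas-/- libraries. The highest library of each 3-week group was the one with the highest endothelial markers. The log2 difference from naive at 3 weeks was 0.82 in Fas+/+ and 0.54 without replicate 1, and it was 0.43 in Fas-/- and -0.14 without replicate 4. With the endothelial marker mean as a covariate, the Entpd1 difference in 3-week Fas+/+ mice turned to -0.50.

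Entpd2, which prefers ATP over ADP, was at 37.4, 72.3, 52.6 and 68.6 CPM in naive, 32.3, 32.1, 27.0 and 44.8 CPM in 3-week Fas+/+ and 39.1, 36.4, 35.1 and 30.9 CPM in 3-week Fas-/- libraries. At 6 weeks it was at 48.1, 42.7, 42.5 and 50.3 CPM in Fas+/+ and 45.4, 41.3, 41.9 and 58.6 CPM in Fas-/- libraries. All 4 of these groups overlapped the naive one, whose lowest library was at 37.4 CPM. The log2 differences from naive were -0.76 and -0.71 at 3 weeks and -0.33 and -0.30 at 6 weeks, for Fas+/+ and Fas-/- respectively. Per kilobase of exon, Entpd2 had the highest mean of the 10 genes in each group, 27.1 ± 7.52 CPM per kb in naive libraries (SD, n = 4), followed by Entpd1 at 8.01 ± 2.01 and P2rx4 at 6.95 ± 0.188 CPM per kb. The naive Entpd2 libraries lay above those of Entpd1, which overlapped those of P2rx4. At 3 weeks Entpd1 and Entpd2 overlapped. The highest Entpd1 library was at 21.5 CPM per kb in Fas+/+ and 21.1 in Fas-/- mice, beside 21.1 and 18.4 for Entpd2. Nt5e was the lowest in naive libraries, at 0.634 ± 0.0416 CPM per kb, and overlapped Adora2b.

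Enpp1 cuts ATP to AMP and pyrophosphate, a brake on mineralization. It was at 23.3, 28.95, 24.4 and 27.0 CPM in naive libraries, and at 13.4, 45.4, 40.6 and 40.7 CPM in 3-week Fas+/+ and 34.8, 37.0, 31.9 and 16.8 CPM in 3-week Fas-/- libraries. At 6 weeks the levels were 19.2, 18.7, 17.6 and 24.4 CPM in Fas+/+ and 22.9, 22.6, 24.5 and 23.1 CPM in Fas-/- libraries. The libraries with the highest endothelial markers had the lowest Enpp1 of their groups, and also the lowest profibrotic fibroblast markers. With group means taken out, Enpp1 had r = 0.967 with the profibrotic marker mean and -0.525 with the endothelial one. All other 3-week libraries lay above all naive ones. The log2 difference from naive was 0.43 in 3-week Fas+/+ mice, or 0.70 without replicate 1, and 0.22 in 3-week Fas-/- mice, or 0.40 without replicate 4. At 6 weeks it was -0.38 in Fas+/+ and -0.16 in Fas-/- mice, and Enpp1 overlapped naive in all 4 groups.

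The ATP-gated channels P2rx4 and P2rx7 were above naive in all groups of bleomycin-instilled mice with no overlap, where 16.1% to 32.2% of all genes did not overlap. P2rx4, a channel of the cell surface and lysosome, was at 48.5, 47.3, 49.0 and 50.5 CPM in naive libraries. It was at 69.5, 72.4, 76.5 and 76.0 CPM in 3-week Fas+/+ and 81.6, 84.2, 78.0 and 89.2 CPM in 3-week Fas-/- libraries. At 6 weeks it was at 63.7, 71.1, 70.4 and 69.99 CPM in Fas+/+ and 73.5, 75.4, 70.8 and 73.8 CPM in Fas-/- libraries. The lowest library of bleomycin-instilled mice, at 63.7 CPM, was above the highest naive one, at 50.5 CPM. The differences were small in size, 0.59, 0.77, 0.49 and 0.59 on the log2 scale, and chose the gene, so they carry no test. The genes most like P2rx4 over the 20 libraries were the acute-phase and iron-binding genes Hp (r = 0.955) and Lcn2 (0.944), the protease inhibitor Serpina3h (0.927), the complement component C6 (0.923) and the transporter Slc15a3 (0.919).

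P2rx7, the channel that opens a large pore at high ATP, was at 15.5, 19.9, 19.2 and 18.8 CPM in naive libraries. It was at 58.0, 43.2, 38.4 and 35.6 CPM in 3-week Fas+/+ and 32.2, 32.7, 32.5 and 60.2 CPM in 3-week Fas-/- libraries. At 6 weeks it was at 23.5, 27.8, 24.9 and 25.03 CPM in Fas+/+ and 31.4, 32.4, 24.8 and 28.2 CPM in Fas-/- libraries. The highest values were again in the 2 libraries with the highest endothelial markers. The log2 differences from naive were 1.26, 1.10, 0.46 and 0.67 in 3-week Fas+/+, 3-week Fas-/-, 6-week Fas+/+ and 6-week Fas-/- mice. Without those libraries the 3-week differences were 1.08 in Fas+/+ and 0.81 in Fas-/-, and with the endothelial marker mean as a covariate they were 0.66 and 0.67.

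P2ry14, the receptor of UDP-sugars, was at 25.9 to 37.2 CPM in naive libraries and overlapped them in every other group, with group means of 34.2, 29.9, 27.2 and 31.9 CPM. Its lowest values, 18.4 and 13.6 CPM, were in the 2 libraries with the highest endothelial markers. With group means taken out, P2ry14 had r = 0.887 with the profibrotic marker mean and -0.604 with the endothelial one. Among adenosine receptors, Adora2a, which couples to cyclic AMP production, had a mean of 9.52 ± 1.66 CPM (SD, n = 4) in naive and 17.4 ± 3.21 CPM in 3-week Fas+/+ libraries. It was at 15.4 ± 1.88 CPM in 3-week Fas-/-, 13.7 ± 0.954 CPM in 6-week Fas+/+ and 10.54 ± 2.01 CPM in 6-week Fas-/- libraries. Only the 6-week Fas-/- group overlapped naive for Adora2a. Adora1, which lowers cyclic AMP, had group means of 7.29 CPM in naive, 6.73 and 7.13 CPM at 3 weeks and 8.38 and 10.6 CPM at 6 weeks, for Fas+/+ and Fas-/- respectively. Adora2b was near the floor of the measurement, at 0.408 to 2.39 CPM (8 to 44 counts) over all libraries.

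**Figure D1:**
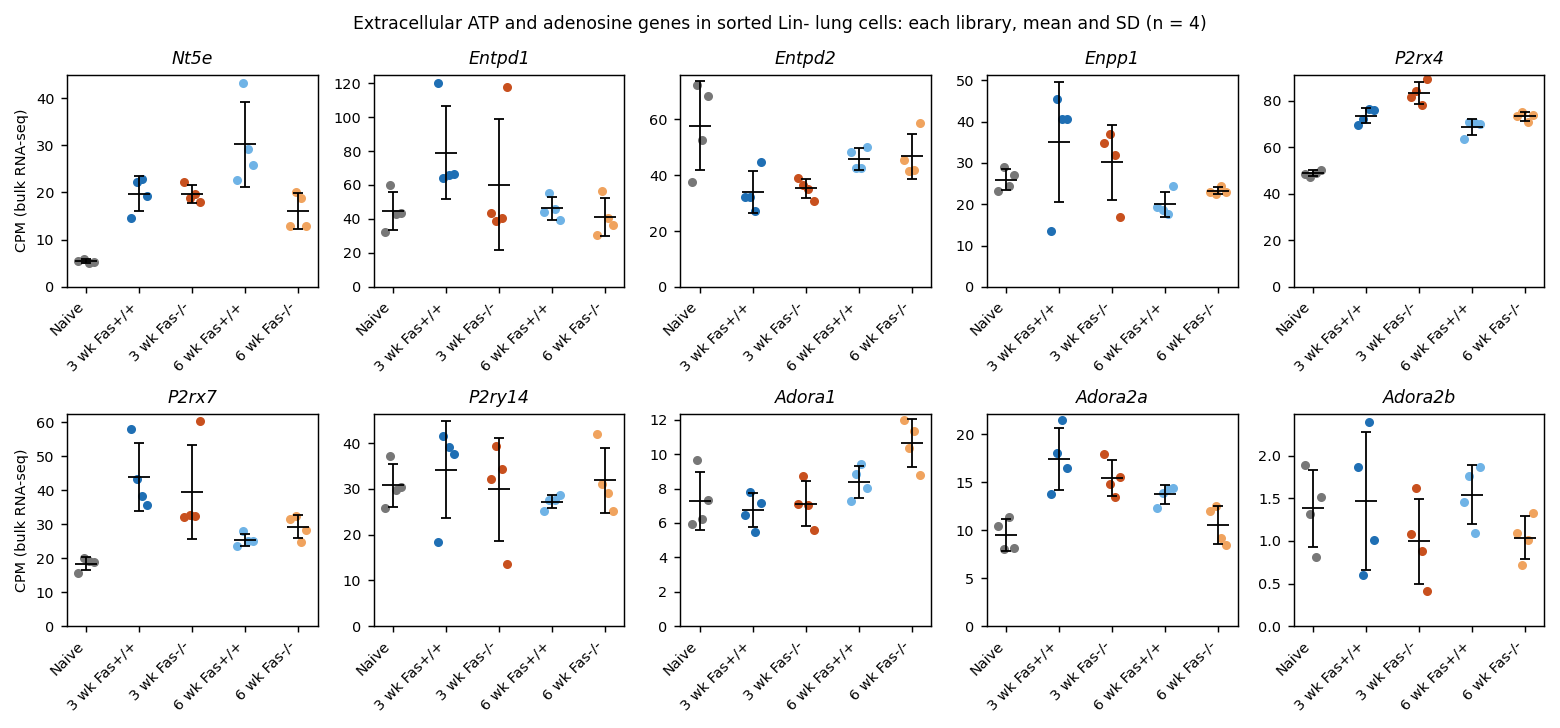
Level of each of the 10 genes in CPM (vertical axes) in the 5 bulk groups, with each point 1 library and bars the mean and SD (n = 4). Nt5e, P2rx4 and P2rx7 sit above naive in every library of bleomycin-instilled mice, and Entpd1, Enpp1 and P2rx7 have single 3-week libraries far from the rest of their group.

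The next question was whether Fas deletion changed these genes. At 3 weeks, none of the 10 genes was called between Fas-/- and Fas+/+ mice by edgeR at an adjusted p of 0.05, where 0.171% of 15773 tested genes were called. At an unadjusted p of 0.05 there was 1 of the 10 genes, beside 8.62% of all genes, and DESeq2 also called none. This was P2rx4, which was higher in Fas-/- libraries by 0.18 ± 0.053 on the log2 scale (SE, edgeR adjusted p = 0.224), with no overlap between the groups (two-sided exact permutation p = 0.0286, the smallest that 4 libraries against 4 allow). Groups did not overlap for 3.92% of all genes. Nt5e differed by 0.00 ± 0.188, with a 95% interval of -0.395 to 0.397. Entpd1 was the exception among libraries left out: without replicate 4 of the Fas-/- group its difference was -0.93 with an edgeR adjusted p of 0.0402. That library was the one with the highest endothelial markers of its group. Without replicate 1 of the Fas+/+ group, its counterpart, the Entpd1 difference was -0.12 (edgeR adjusted p = 0.914). With all libraries and the endothelial marker mean as a covariate it was -0.08 (edgeR adjusted p = 0.902).

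At 6 weeks none of the 10 genes was called by edgeR, where 0.0507% of all genes were called, while 2 passed an unadjusted p of 0.05, beside 8.07% of all genes. The mean of Nt5e was 16.2 ± 3.80 CPM over the Fas-/- libraries, against 30.2 ± 9.03 CPM over the Fas+/+ ones (SD, n = 4). The log2 difference was -0.90 ± 0.189 (SE), with a 95% interval of -1.30 to -0.505 and an adjusted p of 0.101 by edgeR. All 4 Fas-/- libraries were below all 4 Fas+/+ libraries (exact permutation p = 0.0286), as for 3.33% of all tested genes. DESeq2 gave Nt5e an adjusted p of 0.00322 with a difference of -0.91, edgeR gave 0.0481 without replicate 1 of the Fas+/+ group, and edgeR gave 0.706 with the epithelial marker mean as a covariate, where the difference was -0.68. Over all alternatives the adjusted p for Nt5e ran from 0.00322 to 0.706. Epithelial markers differed between the same groups, and their part in the result was not tested beyond that fit. Adora2a had a difference of -0.38 that did not pass the threshold (adjusted p = 0.499 by edgeR, interval -0.704 to -0.0565). The other 8 genes had differences of -0.57 to 0.34.

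The change from 3 to 6 weeks was tested within each genotype. These comparisons share their libraries with the contrasts that chose Nt5e and P2rx4, which is not independent of the choice. In Fas+/+ mice edgeR called 3 of the 10 genes, 1 higher and 2 lower, where 22.9% of all genes were called, 12% higher and 10.9% lower. P2rx7 fell from 43.8 ± 9.97 to 25.3 ± 1.81 CPM (SD, n = 4), a log2 difference of -0.79 ± 0.185 (SE, edgeR adjusted p = 0.00532), and the groups did not overlap (exact permutation p = 0.0286), as for 23.5% of all genes. This call held without each library in turn, with adjusted p of 0.00518 to 0.0209, and with the endothelial marker mean as a covariate, where the difference was -0.50 with an adjusted p of 0.0267.

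Nt5e rose from 19.7 ± 3.72 to 30.2 ± 9.03 CPM (SD, n = 4), by 0.62 ± 0.188 on the log2 scale (SE, edgeR adjusted p = 0.0249). The groups overlapped, since 1 of the 6-week libraries was at 22.6 CPM and the highest 3-week library was at 22.8 CPM (exact permutation p = 0.0571). The Nt5e call was lost without replicate 1 or 4 of the 3-week group (adjusted p = 0.0585 and 0.052 by edgeR) and without replicate 2 of the 6-week group, the library at 43.1 CPM (adjusted p = 0.107, difference 0.41). With only the compared groups in the fit it was lost as well (edgeR adjusted p = 0.0818). Enpp1 fell by 0.81 ± 0.275 on the log2 scale (SE, adjusted p = 0.0412 by edgeR, exact permutation p = 0.143). The Enpp1 groups overlapped through replicate 1 at 3 weeks, at 13.4 CPM. Without that library the difference was -1.08 with an adjusted p of 0.000287, and without any 1 of the other 7 libraries the call was lost, with adjusted p of 0.052 to 0.13. It was also lost with no gene filter (edgeR adjusted p = 0.0533) and with only the compared groups in the fit (0.116). Entpd1 had 6-week libraries all below the 3-week ones, with a difference of -0.78 that did not pass the threshold (edgeR adjusted p = 0.0888, or 0.041 with only the compared groups in the fit). That difference was -0.10 with the endothelial marker mean as a covariate.

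In Fas-/- mice edgeR also called 3 of the 10 genes from 3 to 6 weeks, 1 higher and 2 lower, where 9.02% of all genes were called, 4.48% higher and 4.54% lower. P2rx4 fell from 83.2 ± 4.72 to 73.4 ± 1.90 CPM (SD, n = 4), a log2 difference of -0.18 ± 0.053 (SE, edgeR adjusted p = 0.0398). Adora2a fell by 0.55 ± 0.154 on the log2 scale (SE, edgeR adjusted p = 0.0351). Adora1 rose from 7.13 ± 1.29 to 10.6 ± 1.39 CPM (SD, n = 4), by 0.57 ± 0.166 on the log2 scale (SE, edgeR adjusted p = 0.0391). None of these 3 genes overlapped between the times (exact permutation p = 0.0286 each), as for 17.4% of all genes. All lay near the threshold, and none was called with no gene filter or with only the compared groups in the fit (edgeR adjusted p = 0.0519 to 0.14). With 1 library left out, the P2rx4 call was lost for each of the 8 libraries (adjusted p = 0.0511 to 0.163), the Adora1 call for 6 (replicates 1, 3 and 4 at 3 weeks and 1, 2 and 3 at 6 weeks, up to 0.102) and the Adora2a call for 5 (replicates 1, 2 and 4 at 3 weeks and 3 and 4 at 6 weeks, up to 0.124). Entpd2 was higher at 6 weeks without overlap, by 0.40, and did not pass the threshold (edgeR adjusted p = 0.166).

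No gene of the 10 was called for the genotype-by-time interaction by edgeR, where 0.00634% of all genes were called, and DESeq2 called none of the 10. At an unadjusted p of 0.05 there was 1 of the 10, beside 7.67% of all genes. This was Nt5e, whose log2 change from 3 to 6 weeks in Fas-/- mice minus that in Fas+/+ mice was -0.90 ± 0.266 (SE, edgeR adjusted p = 0.297). The rise of Nt5e in Fas+/+ mice and the value of -0.29 in Fas-/- mice were thus not shown to differ at this threshold.

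**Figure D2:**
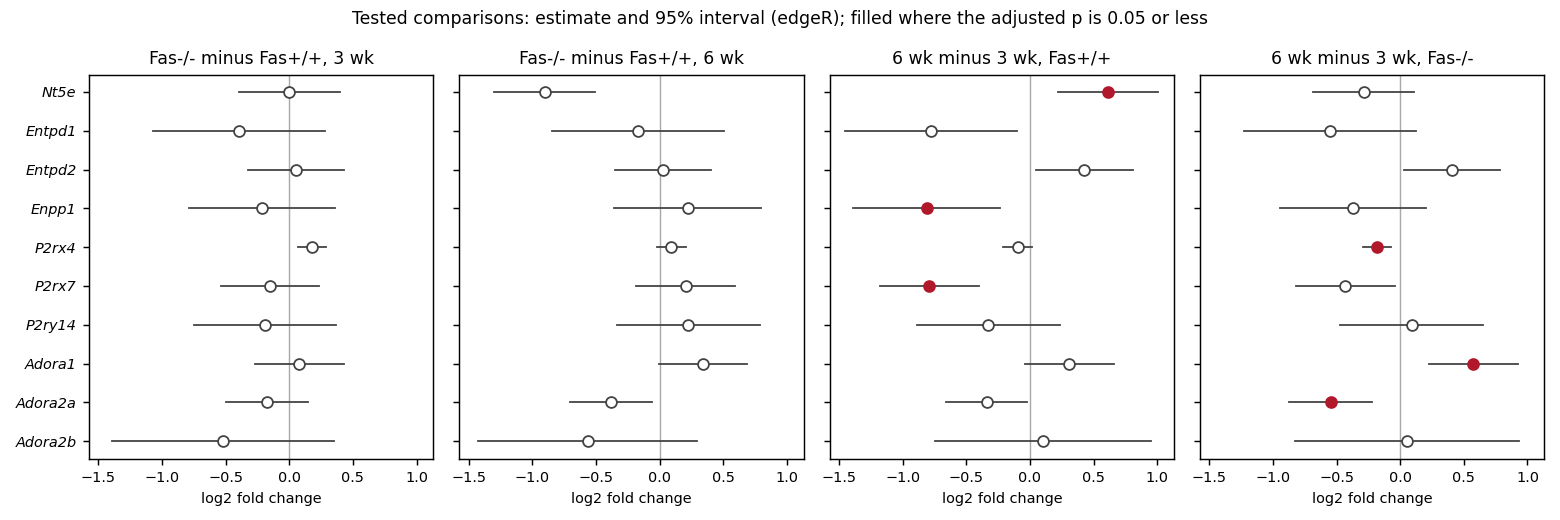
Log2 fold change of each gene with its 95% interval (horizontal axes) for the 4 tested comparisons of genotype and time, filled where the edgeR adjusted p was 0.05 or less. Filled points appear only in the panels of 6 against 3 weeks, and the Nt5e interval at 6 weeks between genotypes runs from -1.30 to -0.505.

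The wider pathway was followed through 41 other genes of ATP release, nucleotide receptors, hydrolysis and adenosine uptake, of which 28 passed the filter. This list was also chosen with earlier results of these data known, so its calls may not be independent of the choice. At 3 weeks against naive, edgeR called 17 of the 28 in Fas+/+ mice (10 higher, 7 lower), beside 41.3% of all genes, and 13 in Fas-/- mice (8 higher, 5 lower), beside 32%. All 13 were also called in Fas+/+ mice, with the same sign, but the comparisons share their naive libraries. The median difference of the 28 genes was 0.11 in Fas+/+ and 0.04 in Fas-/- mice, beside 0.01 and 0.02 for all genes.

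Of 7 tested genes of ATP release, 4 rose and 1 fell in Fas+/+ mice and 3 rose and 1 fell in Fas-/- mice. In either direction, 41.3% and 32% of all genes were called in these comparisons. Ank, a membrane protein of ATP and pyrophosphate release, rose by 1.27 in Fas+/+ and 1.29 in Fas-/- mice on the log2 scale (edgeR adjusted p = 0.00421 and 0.00579), although its libraries with the highest endothelial markers, at 23.8 and 26.6 CPM, were not above the naive ones at 24.3 to 28.8 CPM. The channel genes Panx1 (0.82 and 0.80) and Lrrc8a (0.63 and 0.65) rose as well, although Panx1 was at 4.81 and 6.73 CPM in those libraries, beside 4.59 to 6.68 CPM in naive ones, and overlapped naive in Fas+/+ mice (exact permutation p = 0.114). Calhm2 fell by 0.53 and 0.49, and overlapped naive in Fas+/+ mice, where its highest library was at 42.2 CPM beside a lowest naive one at 41.3 CPM. Of the receptors, P2ry2, a receptor of ATP and UTP, rose by 1.00 and 0.82, from 15.6 ± 2.93 CPM in naive to 31.2 ± 1.63 CPM in 3-week Fas+/+ libraries (SD, n = 4). P2rx6 (-1.05 and -0.91) and P2rx1 (-1.13 and -0.69) fell, opposite to the higher levels of P2rx4 and P2rx7. P2rx1 overlapped naive in Fas-/- mice, where its highest library was at 19.6 CPM beside a lowest naive one at 16.8 CPM.

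Enpp3, a relative of Enpp1 that also cuts extracellular ATP, fell from 23.1 ± 3.33 CPM in naive to 8.38 ± 2.85 CPM in 3-week Fas+/+ libraries (SD, n = 4). Its log2 differences were -1.45 and -1.37 at 3 weeks and -0.96 and -1.08 at 6 weeks, in Fas+/+ and Fas-/- mice respectively, and Enpp3 was called in all 4 comparisons. Slc29a1, the equilibrative transporter that takes adenosine into cells, fell by 1.02 and 0.89 on the log2 scale at 3 weeks, and Ada, which breaks adenosine down, rose by 0.82 and 0.71. Entpd7, an intracellular relative of Entpd1, rose by 0.77 and 0.65, with overlap of naive through the 2 libraries with the highest endothelial markers, at 10.6 and 12.03 CPM (exact permutation p = 0.114 and 0.0571). Acpp, which also makes adenosine from AMP, was called higher in both, but 3 of its naive libraries were at 0 counts, so no fold is given.

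From 3 to 6 weeks edgeR called 6 of the 28 genes in Fas+/+ mice (4 higher, 2 lower) and 3 in Fas-/- mice (all higher), where 22.9% and 9.02% of all genes were called. P2rx6 rose in either genotype, by 0.68 in Fas+/+ and 0.94 in Fas-/- mice (edgeR adjusted p = 0.00487 and 0.00248), as did Calhm2 (0.46 and 0.49) and the adenosine kinase Adk (0.32 and 0.33). Ada and Entpd7 fell by 0.87 and 0.85 in Fas+/+ mice, and P2rx1 rose by 0.72. No gene of the 28 was called for genotype at either time or for the interaction by edgeR. At an unadjusted p of 0.05 or less there were 0 at 3 weeks, 3 at 6 weeks and 1 for the interaction. The shares over all genes were 8.62%, 8.07% and 7.67%, in the same order.

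The single-cell libraries show which cells carried the genes. They held 13900 barcodes, of which 12059 passed the filters, from 603 cells in naive to 3240 in 6-week Fas+/+. The libraries shared cell barcodes, 91 to 289 between each pair. In the naive library 378 of 766 barcodes (49.3%) were also present in another library. After filtering, 350 of its 603 cells were of this kind and held 76.8% of its UMIs, with a median of 11972.5 UMIs beside 4520 in its other cells. For 339 of these 350 cells, no other library held more UMIs of the same barcode. In the other 4 libraries, cells with shared barcodes held 2.20% to 11.2% of UMIs, with medians of 758 to 1133.5 UMIs per cell. Values of the naive library for the mesenchymal classes together are therefore given with and without these cells. Values for single classes include these cells. With 1 library per condition there is no test, and intervals are exact 95% Poisson intervals of counting error only. Cells were clustered without the 10 genes, the pathway list and the marker lists, and classes were named from markers. The larger clusters that stayed unnamed are called by their leading genes, Clec11a (1538 cells) and Saa3 with Lcn2 (627 cells), and are not counted as mesenchymal below. They held 17.3% and 9.58% of all UMIs. An unnamed cluster was counted as mesenchymal only where Pdgfra and Col1a1 both stood above the other cells, and neither cluster met this. That rule does not settle whether they are fibroblasts, which was not tested further. Levels of the mesenchymal classes together leave them out. Levels per class are means over the libraries with at least 20 of its cells.

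The highest Nt5e levels were in a few cells of a type that the sort selects against. The 202 epithelial-like cells held 659 Nt5e UMIs, 58.6% of all Nt5e UMIs from 1.43% of all UMIs, with a mean of 364 CPM and a range of 238 to 452 CPM over 3 libraries. Hhip-marked airway smooth muscle or ductal myofibroblast-like cells followed at 17.3 CPM and profibrotic fibroblast-like cells at 15.1 CPM (8.31 to 23.7), the latter with 23.8% of Nt5e UMIs. At 3000 UMIs per cell, 55.3% of epithelial-like cells, 3.88% of profibrotic fibroblast-like cells and 0.171% of lipofibroblast-like cells had an Nt5e UMI, and without thinning these shares were 54.5%, 13.8% and 0.168%. The pooled share rests largely on the 3-week Fas+/+ library, where 361 of 417 Nt5e UMIs lay in 77 epithelial-like cells. It was 99 of 279 UMIs in the 6-week Fas+/+ and 128 of 264 UMIs in the 6-week Fas-/- library. The naive and 3-week Fas-/- libraries had only 2 and 18 epithelial-like cells, which were left out of the ranking of classes. Among their classes with at least 20 cells, the highest were Hhip-marked cells at 19.9 CPM and profibrotic fibroblast-like cells at 23.7 CPM, respectively.

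Within the 7 named mesenchymal classes together, 7067 cells, Nt5e stood at 3.64 CPM in naive (interval 2.04 to 6.00), 3.01 CPM in 3-week Fas+/+ (2.23 to 3.98), 7.09 CPM in 3-week Fas-/- (5.58 to 8.89), 9.19 CPM in 6-week Fas+/+ (7.85 to 10.7) and 5.83 CPM in 6-week Fas-/- (4.86 to 6.95). The naive and 3-week Fas+/+ intervals overlapped, although the bulk groups differed 3.60-fold. The 6-week Fas+/+ interval lay above that of 6-week Fas-/-, the order seen in bulk, while at 3 weeks the Fas-/- interval lay above that of Fas+/+, where bulk Nt5e differed by 0.00. With 1 library per condition neither separation bears on genotype. Without cells of shared barcodes Nt5e was at 2.96 CPM in naive and 2.85, 6.42, 9.31 and 5.61 CPM in the other libraries, in the same order. Only 15 Nt5e UMIs stood behind the naive value.

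P2rx4 UMIs were found in every named class, in 10.6% of erythroid-like cells too at 3000 UMIs per cell (13.7% without thinning), and the part of carried-over RNA was not tested. The leading genes of the erythroid-like cluster were hemoglobin genes but also included the immunoglobulin genes Igkc and Igha. The P2rx4 level was highest in the unnamed cluster led by Saa3 and Lcn2, at 109 CPM (87.8 to 130). Hp, Lcn2 and C6, all among the leading genes of this cluster, are 3 of the 5 bulk genes most like P2rx4. P2rx4 stood at 100 CPM in pericyte-like cells (77.2 to 130) and 96.3 CPM in blood endothelial-like cells (74.7 to 109). Both ranges overlapped that of the Saa3-led cluster, and pericyte-like cells were the highest class in the 3-week Fas-/- library. P2rx4 was at 83.7 CPM in Clec11a-led, 81.4 CPM in profibrotic fibroblast-like and 76.0 CPM in lipofibroblast-like cells. The lowest named classes were vascular smooth muscle-like cells at 34.2 CPM and mesothelial-like cells at 26.02 CPM. P2rx4 UMIs were found in 26.8% of Saa3-led cells and 7.98% of mesothelial-like cells at 3000 UMIs per cell, and in 67.8% and 20.8% without thinning.

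In the mesenchymal classes P2rx4 stood at 51.0 CPM in naive (44.3 to 58.3) and at 63.3 (59.5 to 67.3), 65.9 (61.1 to 71.0), 71.6 (67.8 to 75.6) and 73.8 CPM (70.2 to 77.5) in the 3-week Fas+/+, 3-week Fas-/-, 6-week Fas+/+ and 6-week Fas-/- libraries. The naive interval lay below the other 4. Without cells of shared barcodes the naive P2rx4 level was 56.3 CPM (42.7 to 73.0) and its interval overlapped the others, whereas with each shared barcode kept only in its deepest library it was 51.0 CPM (44.3 to 58.4). In the Clec11a-led cluster the 5 libraries ranged from 79.7 to 87.4 CPM.

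**Figure D3:**
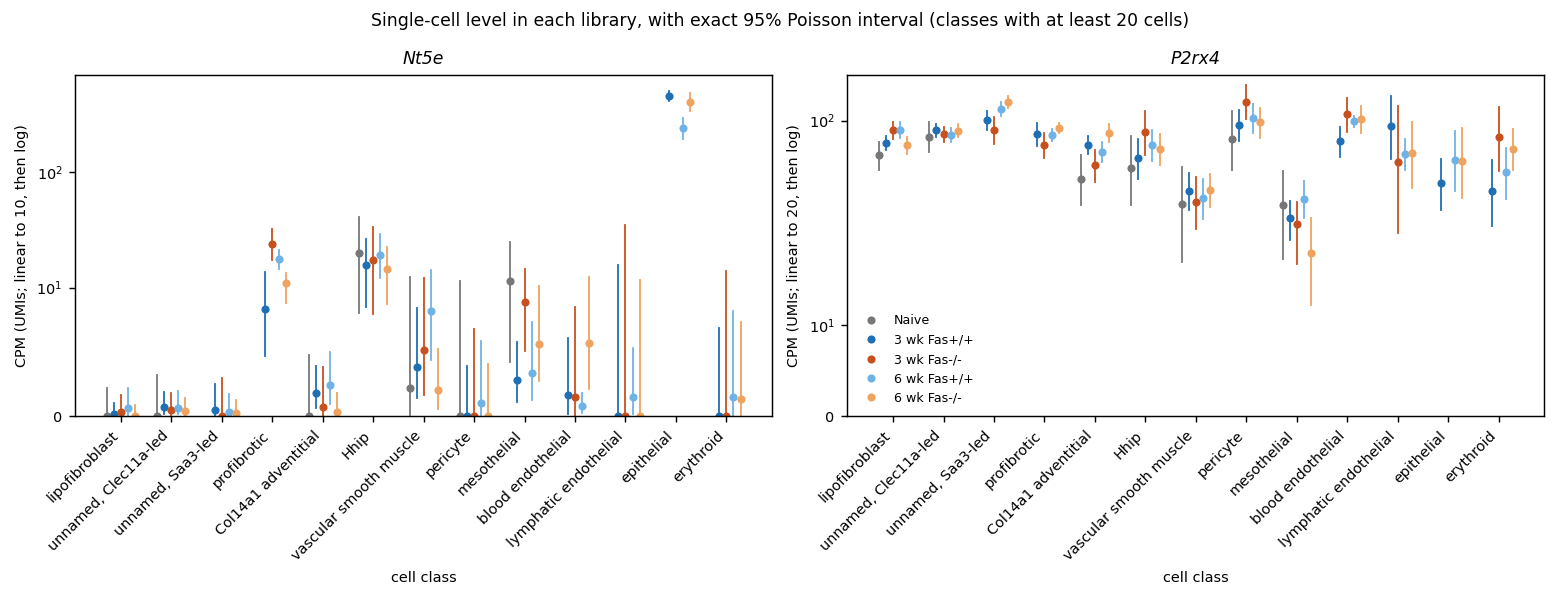
Single-cell level in CPM (vertical axes, linear near 0 and logarithmic above) of Nt5e and P2rx4 in each library by class, with exact 95% Poisson intervals, for classes with at least 20 cells. Nt5e stands at 238 to 452 CPM in epithelial-like cells and far lower elsewhere, whereas P2rx4 lies within a narrow band in most classes.

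Among the other enzymes, Entpd2 was highest in Col14a1 adventitial fibroblast-like cells in all 5 libraries, at 297 CPM (254 to 326), and these cells held 78.4% of its UMIs, with 29.2 CPM in mesothelial-like cells next. At 3000 UMIs per cell 53.1% of these adventitial cells and 0.547% of blood endothelial-like cells had an Entpd2 UMI, or 69.3% and 1.40% without thinning. Entpd1 was at 121 CPM in blood endothelial-like cells and 118 CPM in vascular smooth muscle-like cells, with overlapping ranges of 116 to 131 and 102 to 147 CPM. These classes held 42.0% and 29.5% of Entpd1 UMIs, and 1 cluster carried each class, at 143 beside 17.4 CPM in the 2 blood endothelial-like and 159 beside 25.2 CPM in the 2 vascular smooth muscle-like clusters. The pooled shares depend on the cells of each library, since 891 of the 1424 blood endothelial-like cells came from the 6-week Fas+/+ library. They were 27.5% of its cells, beside 1.49% to 6.87% in the other libraries. Entpd1 was at 0.766 CPM in profibrotic fibroblast-like cells. Enpp1 was at 50.4 CPM in Hhip-marked and 39.1 CPM in profibrotic fibroblast-like cells, which held 55.1% of its UMIs, and at 0.156 CPM in blood endothelial-like cells. In profibrotic fibroblast-like cells Enpp1 stood at 29.9 and 27.5 CPM in the 3-week Fas+/+ and Fas-/- libraries and at 41.9 and 56.9 CPM in the 6-week ones, whereas in bulk the 6-week means were the lower ones.

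Among receptors, P2rx7 was highest in blood endothelial-like cells, at 34.5 CPM (26.4 to 42.0), and was 11.8 CPM in profibrotic fibroblast-like cells. In the blood endothelial-like cells it stood at 42.0 CPM (31.2 to 55.3) in 3-week and 26.4 CPM (22.6 to 30.7) in 6-week Fas+/+ cells. In Fas-/- cells of this class P2rx7 was at 39.5 CPM at 3 weeks and 30.3 CPM at 6 weeks. P2ry14 was highest in Hhip-marked cells, at 682 CPM (536 to 924), followed by vascular smooth muscle-like cells at 205 CPM and pericyte-like cells at 175 CPM. In Hhip-marked cells P2ry14 was at 536 and 538 CPM at 3 weeks and 812 and 924 CPM at 6 weeks, for Fas+/+ and Fas-/- respectively. Adora1 was highest in vascular smooth muscle-like cells, at 15.8 CPM, with 55.9% of its 204 UMIs. Of these, 109 lay in 1 of the 2 clusters of that class, at 53.8 CPM, beside 5 UMIs and 1.11 CPM in the other. Adora2a was highest in the clusters led by Saa3 and Clec11a, at 13.8 and 13.4 CPM. Adora2b was highest in pericyte-like cells, at 14.1 CPM, where 46 UMIs were counted in all.

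In the naive library the shared barcodes moved several genes. In mesenchymal classes Entpd2 was at 64.5 CPM with and 28.7 CPM without them, P2ry14 at 85.9 and 115 CPM, and Entpd1 at 19.2 and 9.88 CPM. The values without them leave out most of the UMIs of that library and rest on its shallower cells. No comparison of these 3 genes with the naive library is therefore drawn.

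**Figure D4:**
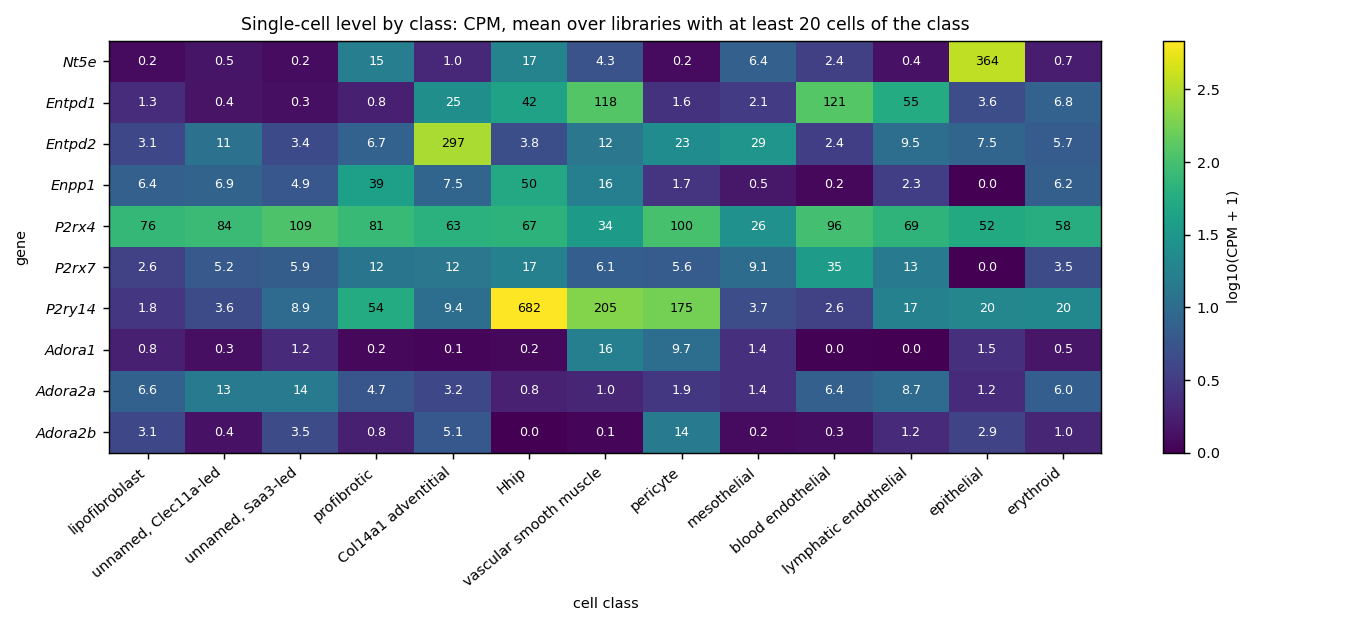
Level of the 10 genes in each single-cell class, as log10(CPM + 1) of the mean over libraries with at least 20 cells of the class (colour). Entpd2 peaks in Col14a1 adventitial fibroblast-like cells at 297 CPM, P2ry14 in Hhip-marked cells at 682 CPM and Nt5e in epithelial-like cells at 364 CPM, whereas P2rx4 is spread over the named classes.

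**Figure D5:**
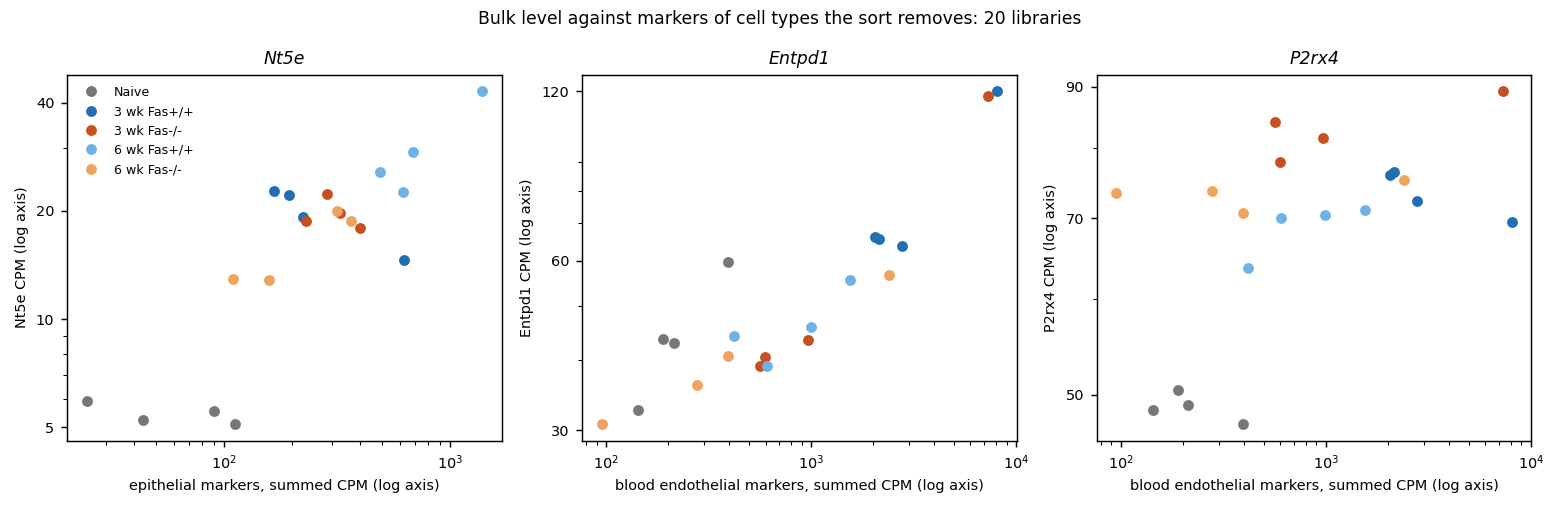
Bulk level of Nt5e, Entpd1 and P2rx4 in CPM (vertical axes, logarithmic) against the summed CPM of epithelial or blood endothelial markers (horizontal axes, logarithmic), 1 point per library. The Entpd1 points at 120 and 118 CPM are the 2 libraries with 8072 and 7311 CPM of endothelial markers, whereas P2rx4 in those libraries, at 69.5 and 89.2 CPM, lies at different ends of the 3-week range.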

How the data were processed

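The authors made the deposited bulk values, raw counts per Ensembl gene, with htseq-count after trimming by skewer and alignment by Hisat2 to GRCm38. For single cells the deposited values are Cell Ranger UMI counts. The deposited table of normalized counts was not used. Samples were grouped by the deposited labels alone, and the 10 genes, the pathway list and the marker lists were chosen with earlier results of these data known.

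Bulk counts of 15773 genes that passed filterByExpr were fitted over all 20 libraries with edgeR 4.0.16 (R 4.3.3), using TMM normalization, the quasi-likelihood F test and Benjamini-Hochberg adjustment, with calls at an adjusted p of 0.05. CPM used TMM library sizes and log2 CPM a prior count of 2. Single genes were also tested by a two-sided exact permutation test of mean log2 CPM. Scripts were checked on simulated data. Alternatives were RLE scaling, no gene filter, DESeq2 1.42.0, the compared groups alone, a replicate block, an endothelial covariate and each library left out. Levels per kilobase used exon lengths from another release of the GRCm38 annotation than the counting. The genes named were all 10, those of the pathway list called for genotype, time or interaction or, against naive, in both genotypes at 3 weeks (at most 12), and the 5 genes with the highest r for Nt5e and for P2rx4, of which 1 is not reported here.

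Cells were kept at 200 to 7500 genes and a mitochondrial share of UMIs up to 20%, and were integrated with Seurat 5.3.0 (SCTransform and anchors, 3000 features, 20 components, resolution 0.8). No doublet caller was run. Shares of cells were taken after thinning to 3000 UMIs, which left out 2846 cells. Library depths are given with the results.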

Additional observations from a re-analysis of the deposited data

Results flagged for a closer look

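In all, 5 groups of 4 libraries, of 50 tested, held 1 library far from the other 3 by Dixon's criterion, where chance gives about 1 in 20. Entpd1 was at 120 CPM in replicate 1 of the 3-week Fas+/+ group, beside 66.2 CPM in the nearest library, and at 118 CPM in replicate 4 of the 3-week Fas-/- group, beside 43.4 CPM. Enpp1 was at 13.4 CPM in the same Fas+/+ library, beside 40.6 CPM, and P2rx7 was at 60.2 CPM in the same Fas-/- library, beside 32.7 CPM. These are the 2 libraries with the highest blood endothelial markers of all, and they had the lowest profibrotic fibroblast markers of their groups. The part of either marker list in the 4 values was not tested. P2rx4 was at 63.7 CPM in replicate 1 of the 6-week Fas+/+ group, beside 69.99 CPM in the nearest library.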

How the results depend on the processing

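Log2 fold changes of the 10 genes kept their direction and their side of the threshold in 498 planned values with all libraries in the fit, became non-significant in 12 and significant in 2, moved by more than the replicate spread in 15 (all against naive, without a test), and were reversed in 13, with a lowest adjusted p of 0.65 among the reversed values that had a test. No member counts are given against naive, since those contrasts chose the genes. The causes of the following changes were not tested. Genes called for genotype at 3 weeks, genotype at 6 weeks and the interaction were 27, 8 and 1 in the fit used, 163, 166 and 90 by DESeq2, 45, 0 and 3 with the replicate block, and 5, 1 and 0 with only the compared groups. They were 3 for the interaction with no gene filter and 44 with the endothelial covariate. Against naive, DESeq2 called 1396 genes at 6 weeks in Fas+/+ and 1567 in Fas-/- mice, the compared groups alone 1595 in Fas+/+ mice with 6 pathway genes, and the endothelial covariate 4040 at 3 weeks in Fas+/+ mice with 9 pathway genes. From 3 to 6 weeks, 10 pathway genes were called by DESeq2 in Fas+/+ mice and 5 with the endothelial covariate in Fas-/- mice, and 891 genes with no gene filter in Fas-/- mice. In the fit used, 22.9% of all genes were called between these times in Fas+/+ and 9.02% in Fas-/- mice. Of the 10 genes, DESeq2 called 1 for genotype at 6 weeks, and from 3 to 6 weeks in Fas-/- mice 0 were called with no gene filter or the compared groups alone and 1 with the endothelial covariate.

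The following log2 differences changed sign. For genotype at 3 weeks Nt5e went to -0.001925 with RLE scaling, -0.001559 with DESeq2, -0.00212 with the compared groups alone and -0.02053 with the epithelial covariate, which was chosen after seeing the data. With the endothelial covariate P2rx7 went to 0.007074 and Entpd2 to -0.001735 for genotype at 3 weeks, Entpd1 to 0.1542 and Entpd2 to -0.01264 for genotype at 6 weeks, and Adora2b to 0.04331 for the interaction. From 3 to 6 weeks the same covariate moved Adora2b to -0.2586 in Fas+/+ mice, and Entpd1 to 0.1336, P2ry14 to -0.1429 and Adora2b to -0.2153 in Fas-/- mice. It moved Entpd1 at 3 weeks against naive to -0.5043 in Fas+/+ mice.

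With 1 library left out, 734 log2 fold changes of the 10 genes kept direction and side of the threshold, 29 became non-significant, 4 became significant and 33 changed sign. Genes called ranged from 0 (without Fas+/+ replicate 2 or 3) to 582 (without Fas-/- replicate 4) for genotype at 3 weeks, and from 0 (without Fas+/+ replicate 2 or 3 or Fas-/- replicate 3 or 4) to 20 (without Fas+/+ replicate 1) at 6 weeks. For the interaction they ranged from 0 (7 of 16 libraries, such as 3-week Fas+/+ replicate 2) to 162 (without 3-week Fas+/+ replicate 1). From 3 to 6 weeks in Fas-/- mice 568 (without 6-week replicate 3) to 1456 were called, and at 6 weeks against naive 415 (without Fas+/+ replicate 2) to 996 in Fas+/+ and 549 (without naive replicate 3) to 843 in Fas-/- mice. Of the 10 genes, 0 to 1 were called for genotype, with the 1 at 3 weeks without Fas-/- replicate 4 and at 6 weeks without Fas+/+ replicate 1. From 3 to 6 weeks, 1 (without 6-week replicate 2) to 3 were called in Fas+/+ mice, and whichever library was left out at most 1 (range 0 to 1) in Fas-/- mice. Pathway genes called ranged from 3 (without replicate 2 or 3 at 3 weeks or replicate 1 at 6 weeks) to 13 (without replicate 1 at 3 weeks) from 3 to 6 weeks in Fas+/+ mice, while Fas-/- mice gave 1 to 4. In the same fits from 3 to 6 weeks, 2457 to 4879 of all genes were called in Fas+/+ and 568 to 1456 in Fas-/- mice. Against naive at 3 weeks in Fas-/- mice, pathway genes called ranged from 8 (without naive replicate 2) to 12, beside 4160 to 4727 of all genes. At 6 weeks against naive, pathway genes called ranged from 1 to 3 in Fas+/+ and from 2 to 4 in Fas-/- mice. Log2 differences ranged, for genotype at 3 weeks, from -0.1196 to 0.0764 (Nt5e), -0.4221 to 0.01133 (P2rx7), -0.04049 to 0.2142 (Entpd2), -0.4008 to 0.04925 (P2ry14) and -0.03423 to 0.183 (Adora1), and at 6 weeks from -0.09835 to 0.07872 (Entpd2). From 3 to 6 weeks they ranged from -0.1654 to 0.4099 (Adora2b) in Fas+/+ mice. In Fas-/- mice the ranges were -0.7288 to 0.007947 (Entpd1), -0.1465 to 0.2576 (P2ry14) and -0.1947 to 0.4086 (Adora2b). For the interaction they ranged from -0.05086 to 0.7613 (Entpd1), -0.1859 to 0.06895 (Entpd2) and -0.3533 to 0.286 (Adora2b).

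Deviations of same-numbered libraries had r from -0.464 to 0.403 (median 0.034), beside -0.56 to 0.587 (median -0.0203) for different numbers. The replicate number was therefore not taken as a pairing, although such wide ranges cannot exclude one. With the replicate block the call of Enpp1 from 3 to 6 weeks in Fas+/+ mice was lost (adjusted p = 0.0684, edgeR), and no other call among the 10 genes changed. Among single-cell levels, 30 planned values moved beyond their interval, more of them at a clustering resolution of 1.2 than under any other planned setting. Adora2b, at 8 to 44 counts per library, is the gene most limited by depth.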
